A study of Mus musculus with 6 samples.

Results

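Enzymes that break down amino acids and enzymes of the urea cycle were measured in mouse liver as messenger RNA, over 44 genes taken by symbol from a table of 22183 gene symbols. The genes cover tyrosine, tryptophan, histidine, serine, glycine, proline, lysine, sulfur and branched-chain amino acid breakdown, the main aminotransferases, and the urea cycle with its carriers. All 44 had a row in the table and all 44 passed the filter on low counts; the lowest count of any of them in any library was 528. The 6 liver samples fell into 3 labelled DOX and 3 labelled PBS (phosphate-buffered saline). Each of the 6 carried the genotype label BucheKI/KI-Hep and was labelled as treated with DDC, so both groups share the knock-in and the DDC. The series describes overexpression of Buche, butyrylcholinesterase, in hepatocytes. The labels expand neither abbreviation; DOX usually stands for doxycycline, which can turn on engineered genes, and DDC for a compound that injures bile ducts. The labels do not name the promoter that drives the knock-in, the age or sex of the mice, or the doses.

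The liver is the main site of amino acid breakdown. Aminotransferases and dehydratases take off the nitrogen, the carbon skeletons enter the citric acid cycle or glucose synthesis, and the ammonia is turned into urea. The urea cycle starts in mitochondria, where carbamoyl phosphate and citrulline are made, and ends in the cytosol, where arginine is formed and split. In mouse liver the urea cycle enzymes and several amino acid-degrading enzymes, such as histidase, serine dehydratase and liver glutaminase, are known to be most abundant around the portal vein, whereas glutamine synthetase is confined to cells around the central vein.

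The comparison set DOX against PBS livers. It cannot tell raised hepatocyte butyrylcholinesterase apart from the DOX agent itself. Bche, the mouse gene for butyrylcholinesterase, stood at 1938, 1867 and 1763 CPM in DOX 1 to 3, against 177, 177 and 206 CPM in PBS 1 to 3. CPM are read counts brought to a common library size with edgeR's TMM scaling. Library totals ran from 32476725 to 40298256 counts in DOX and from 40592030 to 41921404 counts in PBS. Mitochondrially encoded genes took 5.11 to 6.81% of counts in DOX and 3.45 to 4.58% in PBS, and with these genes removed before scaling the member counts given next were the same. Of 8 hepatocyte markers, Fgb rose and the other 7, Alb among them, did not pass, with summed levels of 126100 to 160300 CPM in DOX and 128600 to 139900 CPM in PBS. The labels do not say that samples of a group are separate animals, so the spread that p-values rest on may be technical.

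Of the 44 genes, 23 rose in DOX livers, 1 fell, and 20 did not pass edgeR's quasi-likelihood test at an adjusted p under 0.05 (Benjamini-Hochberg over 14681 genes, as for every adjusted p of a single gene given here). Of all genes tested, 13.5% were higher and 14% lower. The members' median log2 fold change was 0.43, beside -0.01 for all genes tested. Groups did not overlap for 25 members that were higher and 3 that were lower in DOX, whereas they did not overlap in either direction for 44.1% of all genes. Scaled by library size alone, which moved the median of all genes to -0.16, 19 members rose and 5 fell; limma on log2(FPKM + 1) gave 17 and 4. Together the 44 genes summed to 27230, 30140 and 29100 CPM in DOX 1 to 3, against 19820, 17130 and 21480 CPM in PBS 1 to 3. Fewer cells of a type and less RNA per cell cannot be told apart in whole liver. The heat map by library and the plot of fold changes by route show each gene.

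**Figure D1:**
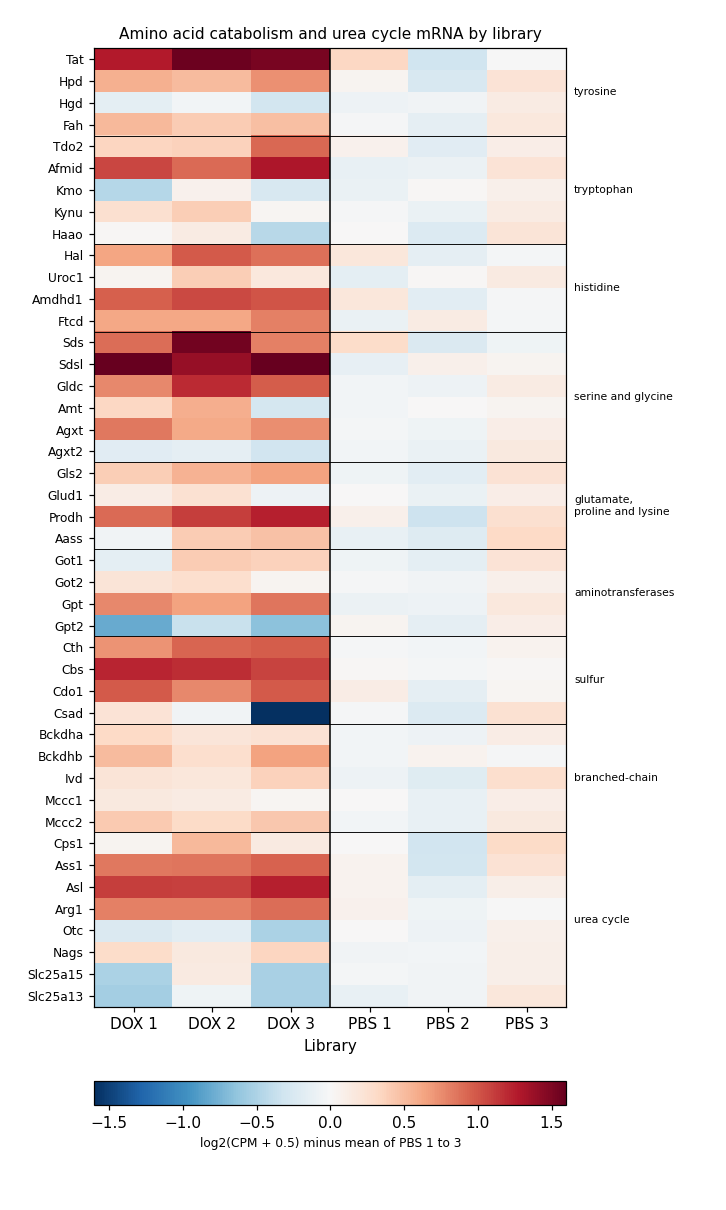
Heat map of the 44 genes (rows, grouped by route) in the 6 libraries (columns, DOX 1 to 3 then PBS 1 to 3), coloured by log2(CPM + 0.5) minus the mean of the PBS libraries, with colours capped at 1.6 in either direction. The 23 genes that rose are red in each DOX library, Gpt2 is blue in each, and Csad is dark blue in DOX 3 alone.

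**Figure D2:**
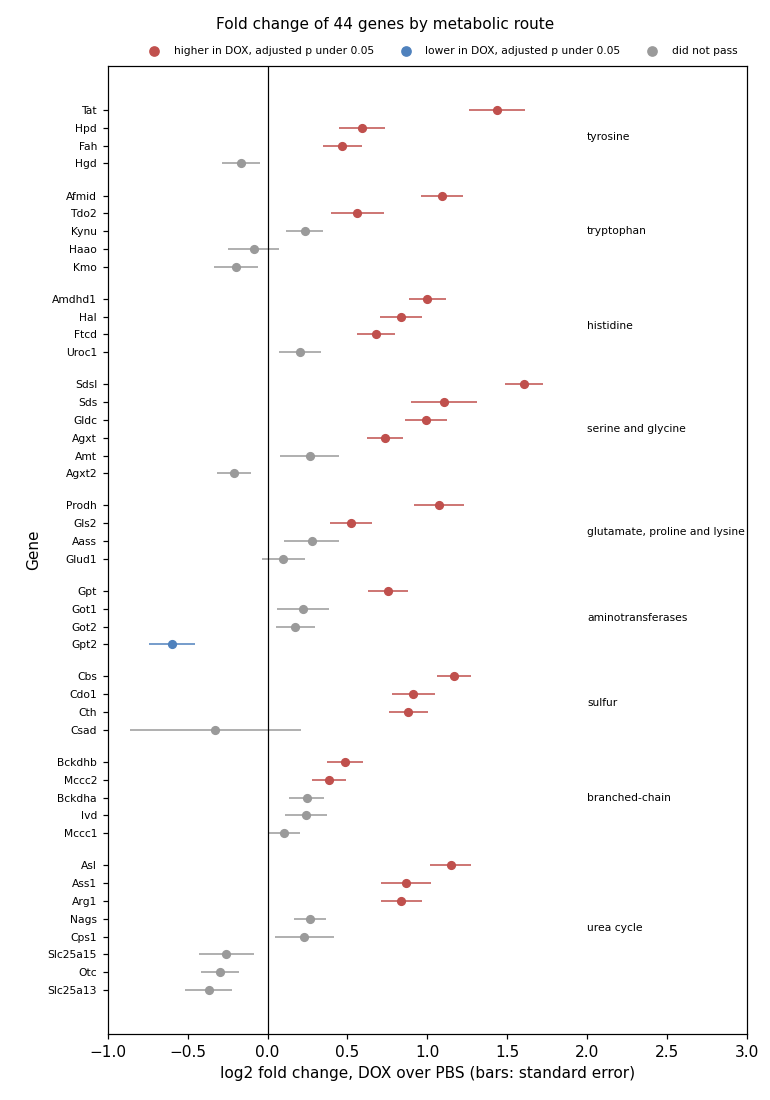
Log2 fold change of DOX over PBS for the 44 genes, grouped by route, with bars of 1 standard error from edgeR; red and blue mark adjusted p under 0.05. The points run from -0.60 for Gpt2 to 1.61 for Sdsl.

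Tyrosine breakdown rose at 3 of its 4 members. Tat, tyrosine aminotransferase, takes the first step and had the second largest rise of the 44 genes. It measured 2310, 2845 and 2735 CPM in DOX 1 to 3, against 1199, 766 and 954 CPM in PBS 1 to 3. Its level was thus 2.70-fold higher (log2 fold change 1.43, SE 0.18, adjusted p = 0.000384), and the lowest DOX library lay well above the highest PBS library. Hpd, the dioxygenase that forms homogentisate, measured 1087, 1041 and 1222 CPM in DOX, against 755, 615 and 852 CPM in PBS (log2 fold change 0.59, SE 0.15, adjusted p = 0.0122). Fah, the last enzyme of the route, measured 498, 462 and 487 CPM in DOX, against 343, 314 and 389 CPM in PBS (log2 fold change 0.47, SE 0.12, adjusted p = 0.0154). The groups did not overlap for either gene. Hgd, homogentisate dioxygenase, lies between them in the route and did not pass, at 290, 313 and 262 CPM in DOX and 305, 311 and 353 CPM in PBS (log2 fold change -0.17, adjusted p = 0.332). Gstz1, the isomerase after Hgd and no member of the 44, lay higher in each DOX library without passing (log2 fold change 0.265, adjusted p = 0.0958). Adjusted p passed 0.05 for Hpd without PBS 2 (0.0586) and for Fah without PBS 1 (0.0656) or PBS 2 (0.0764), in ranges of 0.000302 to 0.0586 and 0.00072 to 0.0764 over 14 alternatives. Hgd passed as lower by library size alone (0.044, in a range of 0.044 to 0.657).

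The promoter of Tat, the gene of largest rise with an entry in the RefSeq promoter table, is shown 5′ to 3′ from 250 bases before to 50 bases after the transcription start (assembly GRCm38.p6, chr8:109990186-109990485, plus strand). Capitals mark matches to the 6 motifs named below, and it has none.

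Tat promoter: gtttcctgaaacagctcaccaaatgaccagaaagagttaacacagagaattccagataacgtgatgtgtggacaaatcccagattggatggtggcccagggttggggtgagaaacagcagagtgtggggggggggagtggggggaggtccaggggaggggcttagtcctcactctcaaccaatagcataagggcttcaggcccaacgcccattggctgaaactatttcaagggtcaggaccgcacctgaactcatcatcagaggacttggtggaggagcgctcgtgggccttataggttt

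Tryptophan breakdown runs through kynurenine, and its first 2 steps rose. Tdo2, the rate-limiting dioxygenase, measured 742, 757 and 1106 CPM in DOX 1 to 3, against 615, 519 and 631 CPM in PBS 1 to 3 (log2 fold change 0.56, SE 0.17, adjusted p = 0.0276). DOX 3 was the high library, and without it the adjusted p was 0.106. Afmid, the formamidase that makes kynurenine, measured 175, 157 and 205 CPM in DOX, against 76.8, 77.9 and 96.8 CPM in PBS (log2 fold change 1.09, SE 0.13, adjusted p = 0.000385). Its groups were far apart, although 44.2% of its annotated exon bases are shared with the same-strand gene Gm20708, and how shared reads were counted is not given in the sources used here. The later members of the route did not pass. Kmo, which hydroxylates kynurenine, had a log2 fold change of -0.20 (adjusted p = 0.302), Kynu, which cleaves it, 0.23 (adjusted p = 0.156), and Haao, which opens the ring of hydroxyanthranilate, -0.09 (adjusted p = 0.715). Tdo2 also did not pass without PBS 1 (0.0686), PBS 2 (0.107) or PBS 3 (0.0531), with values from 0.00371 to 0.148 over the alternatives. Kmo passed as lower without DOX 2 (0.0377, with values from 0.0377 to 0.698). Outside the 44, the later enzyme Acmsd rose (1.75, adjusted p = 0.0025) and Qprt did not pass (0.10, adjusted p = 0.644). Of kynurenine aminotransferases, Kyat3 rose (1.27, adjusted p = 0.000216) and Kyat1 did not pass (-0.49, adjusted p = 0.0576). Aadat rose (0.39, adjusted p = 0.0336), with values from 0.0171 to 0.233 over the alternatives.

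Histidine breakdown consists of 4 enzymes in a row, and all but the second rose. Hal, histidase, measured 214, 274 and 254 CPM in DOX 1 to 3, against 157, 124 and 135 CPM in PBS 1 to 3 (log2 fold change 0.83, SE 0.13, adjusted p = 0.00141). Amdhd1, the imidazolonepropionase that follows urocanase, measured 206, 222 and 214 CPM in DOX, against 121, 94.9 and 105 CPM in PBS (log2 fold change 1.0, SE 0.12, adjusted p = 0.00029). Ftcd, which passes the formimino group to folate, measured 370, 372 and 422 CPM in DOX, against 226, 264 and 237 CPM in PBS (log2 fold change 0.68, SE 0.12, adjusted p = 0.00238). Each of these 3 genes had every DOX library above every PBS library. Uroc1, the urocanase of the second step, overlapped between groups, at 251, 318 and 272 CPM in DOX and 217, 245 and 268 CPM in PBS (log2 fold change 0.20, adjusted p = 0.264). Hal and Amdhd1 are neighbours on chromosome 10 that point towards each other, with 6576 bases and 0 annotated genes between them.

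The promoters of the histidine route are shown because its members moved unevenly, and capitals mark motif matches (RefSeq, assembly GRCm38.p6, 5′ to 3′ along the gene's strand). They lie at chr10:93488518-93488817 for Hal (plus strand), chr6:90333039-90333338 for Uroc1 (plus strand), chr10:93539984-93540283 for Amdhd1 (minus strand) and chr10:76575398-76575697 for Ftcd (plus strand).

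Hal promoter: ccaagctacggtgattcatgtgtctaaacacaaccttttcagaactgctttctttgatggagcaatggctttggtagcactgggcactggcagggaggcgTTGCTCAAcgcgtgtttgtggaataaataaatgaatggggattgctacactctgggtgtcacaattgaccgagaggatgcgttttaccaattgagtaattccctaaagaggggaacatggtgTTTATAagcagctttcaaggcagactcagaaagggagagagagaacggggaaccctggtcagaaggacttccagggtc

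Uroc1 promoter: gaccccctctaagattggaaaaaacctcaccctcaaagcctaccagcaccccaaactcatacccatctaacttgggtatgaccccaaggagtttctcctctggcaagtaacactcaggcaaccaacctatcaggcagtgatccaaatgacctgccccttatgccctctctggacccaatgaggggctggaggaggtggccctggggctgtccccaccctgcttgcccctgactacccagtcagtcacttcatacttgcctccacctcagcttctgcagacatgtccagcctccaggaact

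Amdhd1 promoter: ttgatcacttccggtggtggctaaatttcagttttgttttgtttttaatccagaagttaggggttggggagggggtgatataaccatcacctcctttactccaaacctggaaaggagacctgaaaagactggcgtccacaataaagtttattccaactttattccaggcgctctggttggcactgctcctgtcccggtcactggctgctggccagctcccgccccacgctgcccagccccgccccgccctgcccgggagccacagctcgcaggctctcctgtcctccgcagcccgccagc

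Ftcd promoter: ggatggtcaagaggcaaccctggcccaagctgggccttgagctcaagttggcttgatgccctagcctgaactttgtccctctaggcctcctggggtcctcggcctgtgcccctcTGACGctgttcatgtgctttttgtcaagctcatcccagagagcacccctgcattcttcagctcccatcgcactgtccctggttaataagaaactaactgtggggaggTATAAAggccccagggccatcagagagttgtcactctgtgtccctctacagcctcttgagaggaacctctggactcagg

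In the Hal promoter the capitals are TTGCTCAA, a C/EBP motif starting 150 bases before the transcription start, and TTTATA, the TATA box motif on the opposite strand, starting 28 bases before it. In the Ftcd promoter they are TGACG, the CREB half-site, starting 136 bases before the start, and TATAAA, starting 29 bases before it. Uroc1 and Amdhd1 have no match. The 6 motifs were searched on both strands in the 38 promoters found for 34 of the 44 members. Of those 38, AGAACA, the glucocorticoid receptor half-site, was in 4 (10.5%), beside 19% of all 32851 promoters of that length. TGACG was in 5 (13.2%, beside 20.8% of all), and TGACGTCA, the full CREB site that contains it, in 0 (beside 1.79%). TTGCNNAA, the C/EBP motif, was in 4 (10.5%, beside 10.8%), TATAAA in 7 (18.4%, beside 13.6%), and CAAAGTCCA, an HNF4A motif, in 2, both of Agxt2 (5.26%, beside 0.475%). Promoters of members that rose, 16 in all, held AGAACA in 2, TTGCNNAA in 1 and TATAAA in 3. These are matches of letters in a short window, not binding sites.

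Serine and glycine breakdown held the largest rise of the 44 genes. Sdsl, a relative of serine dehydratase, measured 51.0, 43.2 and 53.1 CPM in DOX 1 to 3, against 14.7, 17.1 and 16.6 CPM in PBS 1 to 3, a 3.04-fold higher level (log2 fold change 1.61, SE 0.12, adjusted p = 2.63e-05). Sds, serine dehydratase itself, which turns serine into pyruvate and ammonia, measured 317, 497 and 298 CPM in DOX, against 210, 145 and 162 CPM in PBS (log2 fold change 1.10, SE 0.21, adjusted p = 0.00452). Sds varied more within DOX than within PBS, with DOX 2 high, and its groups did not overlap. The genes are neighbours on chromosome 5 with 3721 bases between them, and 21.3% of the exon bases of Sds also belong to Plbd2 on the opposite strand. Gldc, the glycine decarboxylase of the mitochondrial glycine cleavage system, measured 261, 351 and 300 CPM in DOX, against 147, 144 and 167 CPM in PBS (log2 fold change 0.99, SE 0.13, adjusted p = 0.00063). Amt, the aminomethyltransferase of the same system, did not pass, at 25.9, 30.8 and 16.8 CPM in DOX and 19.7, 20.5 and 21.0 CPM in PBS (log2 fold change 0.26, adjusted p = 0.31). DOX 3 was the low Amt library, and without it Amt passed as higher (adjusted p = 0.0282, with values from 0.0282 to 0.821 over the alternatives). Agxt, which detoxifies glyoxylate with alanine, measured 231, 195 and 216 CPM in DOX, against 125, 122 and 139 CPM in PBS (log2 fold change 0.73, SE 0.11, adjusted p = 0.00123). Agxt2, the mitochondrial enzyme of that activity, lay lower in each DOX library, at 94.5, 96.6 and 86.7 CPM against 103, 99.5 and 119 CPM in PBS, without passing the test (log2 fold change -0.21, adjusted p = 0.157). It passed as lower by library size alone (adjusted p = 0.0139) and with limma on log2(FPKM + 1) (adjusted p = 0.02), its values running from 0.0139 to 0.451.

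Of the enzymes for proline, glutamine, glutamate and lysine, 2 rose. Prodh, proline dehydrogenase of the mitochondrial inner membrane, measured 271, 312 and 345 CPM in DOX 1 to 3, against 153, 115 and 173 CPM in PBS 1 to 3 (log2 fold change 1.07, SE 0.16, adjusted p = 0.000987). Gls2, the liver glutaminase that frees ammonia from glutamine, measured 274, 306 and 325 CPM in DOX, against 199, 186 and 244 CPM in PBS (log2 fold change 0.52, SE 0.13, adjusted p = 0.0133). The groups did not overlap for either gene, though for Gls2 the adjusted p was 0.0512 without DOX 3, 0.062 without PBS 1 and 0.0663 without PBS 2, in a range of 0.00105 to 0.0663. Glud1, glutamate dehydrogenase, overlapped between groups at 1110, 1214 and 971 CPM in DOX and 1031, 947 and 1099 CPM in PBS (log2 fold change 0.10, adjusted p = 0.619). Aass, which starts lysine breakdown, also overlapped, with a log2 fold change of 0.28 (adjusted p = 0.253).

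The aminotransferases split. Gpt, the cytosolic alanine aminotransferase, rose, at 551, 508 and 585 CPM in DOX 1 to 3, against 305, 307 and 364 CPM in PBS 1 to 3 (log2 fold change 0.75, SE 0.13, adjusted p = 0.00183). Gpt2, its mitochondrial counterpart, was the sole member that fell, at 488, 665 and 543 CPM in DOX, against 876, 771 and 920 CPM in PBS (log2 fold change -0.60, SE 0.14, adjusted p = 0.0109). Both pairs of groups were apart. The log2 ratio of Gpt over Gpt2 was 0.18, -0.39 and 0.11 in DOX, against -1.52, -1.33 and -1.34 in PBS, a difference of 1.36. Among 4 pairs of related enzymes compared this way, the exact two-sided permutation test gave p = 0.1 for Gpt over Gpt2, which is the smallest p that 3 against 3 libraries can give (adjusted p = 0.2 over the 4 pairs). Agxt over Agxt2 likewise reached p = 0.1 in the exact test (adjusted p = 0.2), at 1.29, 1.02 and 1.32 in DOX, against 0.28, 0.30 and 0.22 in PBS. Sds over Sdsl overlapped between groups, with a difference of -0.52 (exact permutation p = 0.3, adjusted p = 0.4). Got1 and Got2, the cytosolic and mitochondrial aspartate aminotransferases, overlapped between groups (log2 fold changes 0.22 and 0.17, adjusted p = 0.338 and 0.304), and their log2 ratio differed by 0.03 (exact permutation p = 0.9, adjusted p = 0.9).

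The promoter of Gpt2, shown as that of the member that fell, lies at chr8:85492326-85492625 on the plus strand (RefSeq, assembly GRCm38.p6), and has no match to the motifs.

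Gpt2 promoter: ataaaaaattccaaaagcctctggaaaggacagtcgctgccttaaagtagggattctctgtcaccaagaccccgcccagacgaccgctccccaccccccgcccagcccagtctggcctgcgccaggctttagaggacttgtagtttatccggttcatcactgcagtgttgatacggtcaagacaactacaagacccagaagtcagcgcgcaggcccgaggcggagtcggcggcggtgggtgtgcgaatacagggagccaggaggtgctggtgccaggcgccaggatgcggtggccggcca

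**Figure D3:**
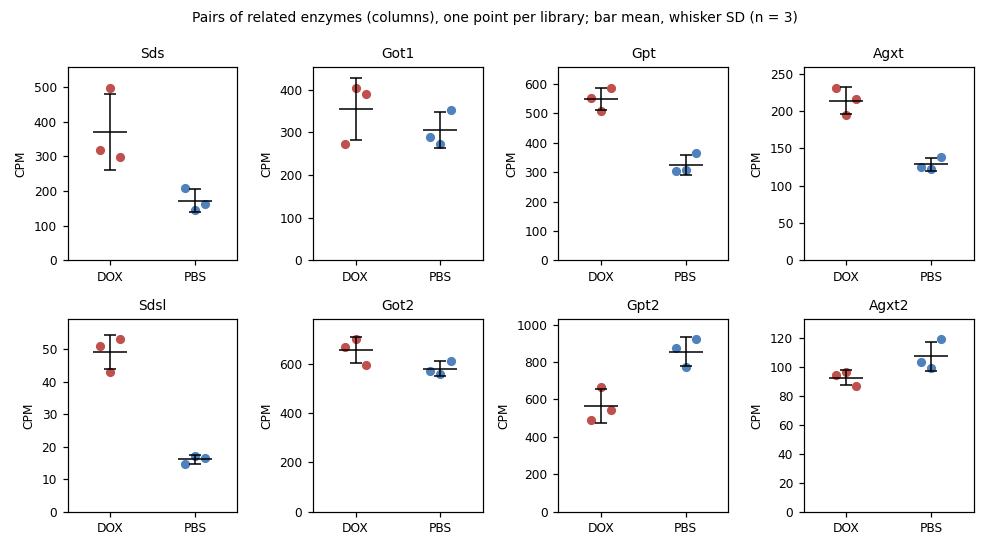
CPM of the 4 pairs of related enzymes (1 pair per column) in DOX (red) and PBS (blue) livers, with 1 point per library, a bar at the mean and a whisker of 1 SD (n = 3). Gpt and Agxt are higher in DOX while Gpt2 lies lower in DOX, and Got1 and Got2 overlap between groups.

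Sulfur amino acid breakdown rose at 3 of its 4 members. Cbs, cystathionine beta-synthase, commits homocysteine to cysteine and varied little, at 366, 357 and 332 CPM in DOX 1 to 3, against 158, 153 and 159 CPM in PBS 1 to 3 (log2 fold change 1.17, SE 0.11, adjusted p = 8.48e-05). Cth, cystathionine gamma-lyase, which releases cysteine, measured 765, 889 and 914 CPM in DOX, against 461, 451 and 485 CPM in PBS (log2 fold change 0.88, SE 0.12, adjusted p = 0.000814). Cdo1, cysteine dioxygenase, measured 2293, 1983 and 2296 CPM in DOX, against 1259, 1048 and 1183 CPM in PBS (log2 fold change 0.91, SE 0.14, adjusted p = 0.00113). Every DOX library was above every PBS library for these 3 genes. Csad, the decarboxylase that leads from the product of Cdo1 to taurine, split the DOX livers, at 299, 249 and 74.6 CPM in DOX and 255, 221 and 305 CPM in PBS. DOX 3 alone was low (log2 fold change -0.33, SE 0.53, adjusted p = 0.70), and without it the log2 fold change was 0.08. Ethe1, the mitochondrial persulfide dioxygenase and no member of the 44, also rose (log2 fold change 0.73, adjusted p = 0.000652). Of other sulfur enzymes outside the 44, Suox (0.24, adjusted p = 0.284), Sqor (0.05, adjusted p = 0.77) and Tst (0.14, adjusted p = 0.332) did not pass. Mpst rose (0.30, adjusted p = 0.042), with values from 0.0183 to 0.297 over the alternatives.

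Of the 5 genes of branched-chain amino acid breakdown, 2 rose. Bckdhb, the beta subunit of the first, decarboxylating part of the branched-chain ketoacid dehydrogenase, measured 88.5, 75.1 and 97.3 CPM in DOX 1 to 3, against 60.3, 64.6 and 61.4 CPM in PBS 1 to 3 (log2 fold change 0.48, SE 0.11, adjusted p = 0.00882). Bckdha, its alpha subunit, lay higher in each DOX library, at 234, 215 and 221 CPM against 183, 177 and 205 CPM in PBS, without passing the test (log2 fold change 0.25, adjusted p = 0.116). Of its annotated exon bases 61.7% also belong to B3gnt8 on the opposite strand. Mccc2, the beta subunit of methylcrotonyl-CoA carboxylase in leucine breakdown, measured 60.9, 56.1 and 61.4 CPM in DOX, against 44.1, 41.6 and 50.8 CPM in PBS (log2 fold change 0.39, SE 0.11, adjusted p = 0.0197). Mccc1, its alpha subunit, overlapped between groups (log2 fold change 0.10, adjusted p = 0.488), as did Ivd, isovaleryl-CoA dehydrogenase (0.24, adjusted p = 0.192). Mccc2 did not pass without DOX 1 (0.054), DOX 3 (0.0677), PBS 1 (0.0741) or PBS 2 (0.0881), in a range of 0.0101 to 0.106. Bckdhb did not pass by library size alone (0.051) or with limma on log2(FPKM + 1) (0.085, the highest of values from 0.000974). Around these members, the aminotransferase Bcat2 and the dehydrogenase core subunit Dbt rose (log2 fold changes 0.58 and 0.52), the activating phosphatase Ppm1k fell (-0.63, adjusted p = 0.00617), and the inactivating kinase Bckdk did not pass (-0.28, adjusted p = 0.21).

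In the urea cycle the 3 cytosolic enzymes rose and the 5 mitochondrial members did not pass. Ass1, argininosuccinate synthase, measured 3094, 3137 and 3316 CPM in DOX 1 to 3, against 1801, 1408 and 2030 CPM in PBS 1 to 3 (log2 fold change 0.87, SE 0.15, adjusted p = 0.00264). Asl, argininosuccinate lyase, measured 1120, 1113 and 1237 CPM in DOX, against 541, 470 and 558 CPM in PBS (log2 fold change 1.15, SE 0.13, adjusted p = 0.000239). Arg1, liver arginase, measured 2897, 2890 and 3089 CPM in DOX, against 1744, 1579 and 1649 CPM in PBS (log2 fold change 0.84, SE 0.13, adjusted p = 0.00126). These 3 genes were close together within DOX and apart from PBS. Cps1, the carbamoyl phosphate synthetase that brings ammonia into the cycle, overlapped, at 3810, 5305 and 4061 CPM in DOX and 3700, 2975 and 4560 CPM in PBS (log2 fold change 0.23, SE 0.19, adjusted p = 0.384). Otc, which makes citrulline, lay lower in each DOX library, at 158, 166 and 130 CPM against 186, 176 and 196 CPM in PBS, without passing the test (log2 fold change -0.30, SE 0.12, adjusted p = 0.0828). Nags, whose product activates Cps1, lay higher in each DOX library, at 96.9, 88.4 and 101 CPM against 76.5, 76.7 and 84.8 CPM in PBS, without passing the test (log2 fold change 0.27, SE 0.10, adjusted p = 0.0662).

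The 2 carriers of the cycle pointed down without passing. Slc25a15, which exchanges ornithine and citrulline across the mitochondrial membrane, measured 203, 320 and 202 CPM in DOX 1 to 3 and 283, 278 and 307 CPM in PBS 1 to 3 (log2 fold change -0.26, adjusted p = 0.282). Slc25a13, citrin, which exports aspartate for Ass1, measured 143, 199 and 146 CPM in DOX and 193, 202 and 237 CPM in PBS (log2 fold change -0.37, adjusted p = 0.0785). DOX 2 was the high DOX library for both carriers. Without DOX 2, Slc25a15 (adjusted p = 0.00517), Slc25a13 (0.00572) and Otc (0.0409) passed as lower and Nags (0.0268) as higher, in ranges of 0.00517 to 0.609, 0.00572 to 0.248, 0.00888 to 0.264 and 0.0268 to 0.42. Otc and Slc25a13 also passed as lower by library size alone (0.00888 and 0.0125) and with limma on log2(FPKM + 1) (0.0143 and 0.0229), and Slc25a13 with no filter on low counts (0.0304). Slc25a12, the other aspartate-glutamate carrier and no member of the 44, rose (log2 fold change 0.71, adjusted p = 0.000967), at 32.3, 34.7 and 37.8 CPM in DOX, against 21.2, 21.2 and 21.5 CPM in PBS.

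Levels of different genes were compared per length, as the authors' FPKM, which carry no TMM scaling. Arg1 and Ass1 were the most abundant of the 44 transcripts, at 1898 ± 113 and 1848 ± 107 FPKM in DOX and 1185 ± 68.2 and 1127 ± 174 FPKM in PBS (SD, n = 3 each), and did not differ from each other beyond their spread. Cdo1 came next, at 1220 ± 117 FPKM in DOX and 721 ± 64.1 FPKM in PBS. Cps1 stood at 736 ± 126 FPKM in DOX and 697 ± 127 FPKM in PBS, within the spread of Cdo1 in PBS livers but not in DOX livers. Otc was far lower, at 34.0 ± 3.50 FPKM in DOX and 46.5 ± 1.36 FPKM in PBS. The summed FPKM of Ass1, Asl and Arg1 was 6.08, 4.44 and 6.19 times that of Cps1 and Otc in DOX 1 to 3, against 3.60, 3.75 and 3.04 times in PBS 1 to 3. The ratio was higher in each DOX library, with DOX 2 nearest to PBS. The lowest mean levels in DOX were those of Amt (11.3 ± 3.09 FPKM), Mccc1 (12.5 ± 0.34 FPKM) and Kynu (18.6 ± 1.93 FPKM), the first 2 within their spread of each other. In PBS they were those of Sdsl (8.87 ± 0.71 FPKM), Amt (10.5 ± 0.26 FPKM) and Mccc1 (12.99 ± 0.69 FPKM), with Afmid (13.4 ± 1.37 FPKM) within the spread of Mccc1.

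**Figure D4:**
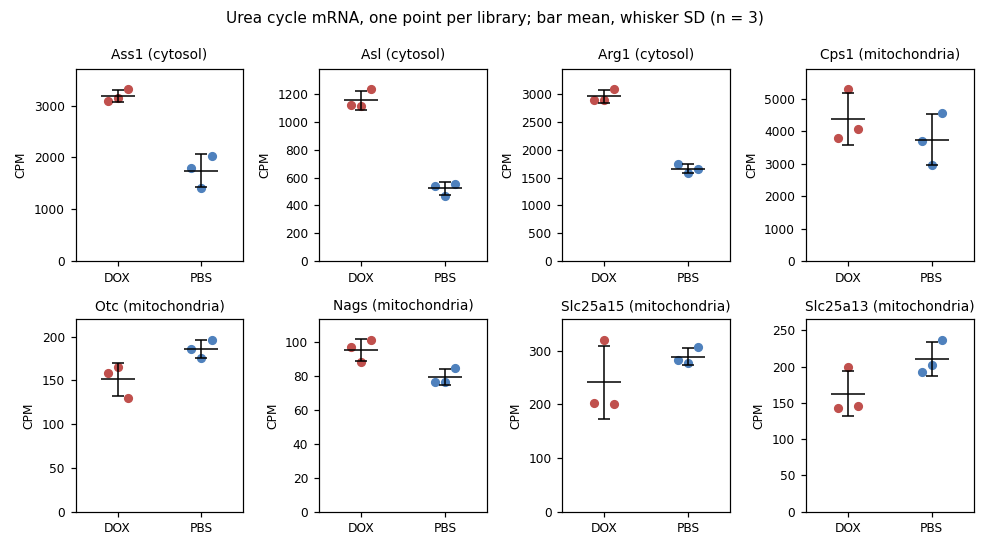
CPM of the 8 urea cycle genes in DOX (red) and PBS (blue) livers, with 1 point per library, a bar at the mean and a whisker of 1 SD (n = 3); each axis starts at 0. The 3 cytosolic enzymes lie between 1113 and 3316 CPM in DOX livers with no overlap with PBS. Cps1 and the carriers overlap between groups, while Otc lies lower and Nags higher in each DOX library.

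The 44 genes, the 8 of the urea cycle among them, were also sorted by the known place of their proteins. Of 23 cytosolic enzymes, 17 rose and the other 6 did not pass edgeR's test, with a median log2 fold change of 0.83. Of 20 mitochondrial proteins, 5 rose (Gldc, Prodh, Bckdhb, Gls2 and Mccc2) and 1 fell (Gpt2), with a median of 0.24. The shares were thus 73.9% higher for the cytosolic class, and 25% higher and 5% lower for the mitochondrial class. Over all genes tested 13.5% were higher and 14% lower, with a median of -0.01. The cytosolic genes that did not pass were Hgd, Kynu, Haao, Uroc1, Got1 and Csad. Agxt, whose protein is found in peroxisomes and mitochondria, rose and was counted in neither class. The difference between the classes was not tested, and both hold genes of several routes.

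**Figure D5:**
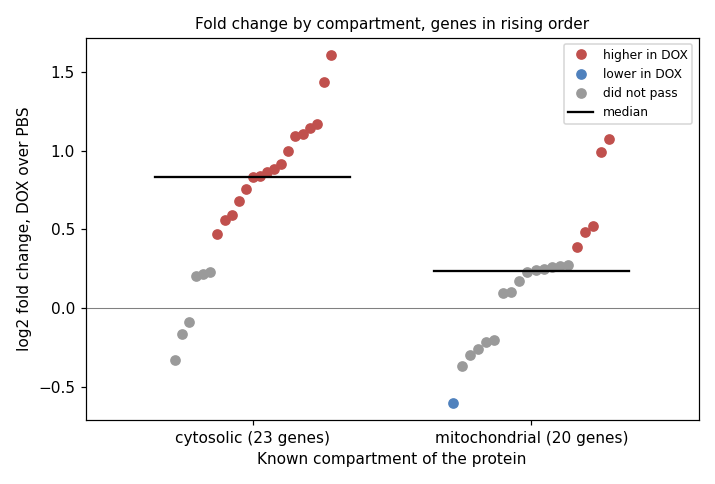
Log2 fold change of DOX over PBS for 23 cytosolic (left) and 20 mitochondrial (right) members, each in rising order, coloured by call at adjusted p under 0.05, with a line at the median. The median is 0.83 for cytosolic and 0.24 for mitochondrial genes, and the classes overlap.

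Of 58 further enzymes and carriers of amino acid breakdown, listed for their known roles, 55 could be tested. Among these, 16 rose (29.1%), 5 fell (9.09%) and 34 did not pass, beside 13.5% higher and 14% lower of all genes tested. The median log2 fold change of the 55 was 0.12. The 3 of smallest p among those that rose were Kyat3, a kynurenine aminotransferase (1.27, adjusted p = 0.000216), Ethe1 and Slc25a12. Kyat3 measured 334, 337 and 384 CPM in DOX 1 to 3, against 144, 123 and 172 CPM in PBS 1 to 3. Acmsd, which turns tryptophan carbon towards full oxidation, measured 49.2, 44.4 and 78.4 CPM in DOX, against 20.8, 13.1 and 17.3 CPM in PBS (log2 fold change 1.75, adjusted p = 0.0025). Those that fell included Ddo, D-aspartate oxidase (-1.26, adjusted p = 0.000652), Prodh2, hydroxyproline dehydrogenase (-1.21, adjusted p = 0.00092), Ppm1k and Hao1, glycolate oxidase (-2.09, adjusted p = 0.0316). Prodh2 thus fell while its relative Prodh rose, at 24.0, 29.5 and 17.0 CPM in DOX, against 52.1, 56.1 and 54.5 CPM in PBS. The count of risers was 9 without PBS 2 and 10 by library size alone. The number that fell was 10 without DOX 2, 3 without DOX 1, PBS 1 or PBS 3, and 12 by library size alone. Hao1 did not pass without DOX 1 (0.126), PBS 1 (0.0713), PBS 2 (0.0835) or PBS 3 (0.0844), with values from 0.000536 to 0.126.

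Markers of other cells and of the liver zones moved between the same groups. Of 6 fibroblast and stellate cell markers, 4 fell (Col3a1, Col1a1, Lum and Pdgfrb), with summed levels of 814 to 1108 CPM in DOX and 1345 to 1598 CPM in PBS. Dcn pointed up without passing (log2 fold change 0.43, adjusted p = 0.0701), and Pdgfrb did not pass without PBS 1 (0.079). Of 6 macrophage markers, Vsig4 and Marco rose (sums of 782 to 865 CPM in DOX, 667 to 719 CPM in PBS). Log2 fold changes were positive for 4 of these 6 and negative for 2, Clec4f and Adgre1. Of 5 endothelial markers Pecam1 rose (134 to 178 CPM in DOX, 138 to 150 CPM in PBS), with positive log2 fold changes for 4 and a negative one for 1. Of 6 bile duct markers Sox9 fell (540 to 794 CPM in DOX, 774 to 939 CPM in PBS). Log2 fold changes were negative for 4 of these 6 and positive for 2, Cldn4 and Epcam. Of 4 neutrophil markers Csf3r fell (38.0 to 82.6 CPM in DOX, 37.8 to 59.2 CPM in PBS), with Ly6g at or near 0. S100a8 (0.65, adjusted p = 0.187) and S100a9 (0.62, adjusted p = 0.324) pointed up without passing. Of 5 lymphocyte markers 3 could be tested and Nkg7 fell (log2 fold change -1.54, adjusted p = 0.0203, but 0.0813 without PBS 1). The 5 summed to 0.571 to 1.24 CPM in DOX and 2.08 to 3.48 CPM in PBS. Of 11 genes of central-vein hepatocytes, 7 fell, Cyp1a2 rose and 3 did not pass. Rgn (0.0715), Rhbg (0.0563), Slc1a2 (0.122) and Cyp1a2 (0.0642) did not pass without DOX 1, nor did Axin2 without PBS 2 (0.0711). Lgr5, among those that fell, rested on 9, 7 and 2 counts in DOX, against 51, 33 and 75 in PBS. The log2 fold change was negative for 10 of the 11, with a median of -1.08. Their summed levels were 2359 to 2943 CPM in DOX and 2734 to 3963 CPM in PBS. Cyp2e1 was the largest part of these sums (1169 to 1557 CPM in DOX, 1474 to 2067 CPM in PBS). Glul, glutamine synthetase, was not called (log2 fold change -0.61, adjusted p = 0.216). Of 8 portal hepatocyte genes that are not among the 44, Etnppl and Pck1 rose, Hsd17b6 fell and 5 did not pass. Etnppl (0.0536) and Pck1 (0.083) did not pass without PBS 2, nor did Hsd17b6 without DOX 1 (0.0606). Log2 fold changes were positive for 3 of the 8 and negative for 5, with a median of -0.17. Pck1 (2483 to 2811 CPM in DOX, 1406 to 2097 CPM in PBS) was the largest part of their summed levels. Those sums were 4062 to 4222 CPM in DOX and 3170 to 3833 CPM in PBS. The part of these markers in the changes of the 44 genes was not tested.

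Within the PBS group, PBS 2 was the lowest PBS library for 33 of them and PBS 3 the highest for 35, or 75% and 79.5%. Over all genes tested the shares were 31.5% and 34.7%. Within DOX, DOX 1 was lowest for 17 members, DOX 2 for 14 and DOX 3 for 13, and they were highest for 6, 20 and 18. Those are 38.6%, 31.8% and 29.5% lowest and 13.6%, 45.5% and 40.9% highest, beside 31.5%, 37% and 31.5% lowest and 32.1%, 35.7% and 32.2% highest over all genes tested. Without PBS 2, 18 members rose, and without PBS 3, 22 rose.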

How the data were processed

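RNA of 6 mouse liver samples was extracted with an RNeasy kit and made into SMARTER mRNA-seq libraries, per the labels. The authors deposited whole-number counts per gene symbol, with no normalization, and FPKM values for the same libraries. For each of 22183 genes, the deposited FPKM above 0 equalled the count over 1 length per gene and the library total within 0.1%. Per the submitters' processing notes the builds are GRCm38, mm10 and hg38, with no role given. The sources used here do not give the aligner, the counting program, its use of strand or the annotation.

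Counts were tested with edgeR 4.0.16 in R 4.3.3 (quasi-likelihood, robust, TMM, filterByExpr with minimum count 10 and total 15, group as the only term), with Benjamini-Hochberg adjustment over 14681 genes. DESeq2 1.42.0, limma 3.58.1 on log2(FPKM + 1), other scalings, no filter, a replicate block and leaving out each library were alternatives. On simulated counts for DOX against PBS over 14495 genes, 82% of 2-fold changes and 90% of 4-fold changes were recovered by edgeR, with 5.49% false calls; DESeq2 recovered 83% and 89%, with 14.4% false calls. PCR duplicates are not accounted for.

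The members and lists were chosen with earlier results of these data known. Named genes were the called members, up to 4 per route by smallest p, and the other members by value. Also named were 4 pairs of related enzymes, Bche, and up to 3 called related genes in each direction. Hao1, Acmsd, Bcat2, Dbt, Bckdk and Slc25a12 were chosen after their values were seen. So were Gstz1, Qprt, Aadat, Kyat1, Suox, Sqor, Tst, Mpst and the named transporters, regulators and markers. Of 183 list entries 2 were matched by RefSeq synonym. Compartments are textbook knowledge. The values of 1 further enzyme are not reported here. Promoters and gene positions are from RefSeq (GRCm38.p6), and exon overlaps from GENCODE M21. The annotation behind the counts may differ from GENCODE M21, so the overlap shares may not hold for these counts.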

Additional observations from a re-analysis of the deposited data

How the results depend on the processing

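Of the 23 members that rose, 17 passed in each of the 14 alternatives and 6 (Hpd, Fah, Tdo2, Gls2, Bckdhb and Mccc2) did not pass in at least 1. No called member changed sign under these alternatives, and Gpt2 passed as lower in each. The count that rose ran from 17 to 24, and from 18 to 24 when 1 library was left out. The count that fell was 5 by library size alone, 2 with no filter on low counts and 4 with limma on log2(FPKM + 1), and 1 to 5 without 1 library. The members' median was 0.27 both by library size alone (0.274) and with limma (0.269). Over all genes, 1975 rose and 2062 fell; the counts were 1028 and 3429 by library size alone, and 917 and 3202 with limma. Higher genes made up 48.9% of calls, 23.1% by library size alone and 22.3% with limma. Without 1 library, 1208 to 2440 rose and 1305 to 2348 fell. Of the further enzymes 16 rose and 5 fell, against 10 and 12 by library size alone and 7 and 11 with limma, and 9 to 16 and 3 to 10 without 1 library. Genes that had not passed changed sign as follows: Haao (-0.192 to 0.066 without 1 library; 0.018 without PBS 3), Csad (-0.687 to 0.075, the highest without DOX 3), Glud1 (-0.059 by library size alone, -0.062 with limma) and Mccc1 (-0.053 and -0.048 under the same settings). Same-numbered DOX and PBS libraries did not deviate together (correlations 0.12, -0.11 and -0.16), so the number was not taken as a pairing; with the replicate block 23 members rose and 1 fell, and 14 and 7 of the further enzymes. With 3 libraries a group, a member that did not pass is not shown to be unchanged. The cause of these shifts was not tested.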

Other observations

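Transporters and regulators of amino acid breakdown were also measured. Of 10 amino acid transporters of the cell membrane and mitochondria, 3 rose (30%), 1 fell (10%) and 6 did not pass edgeR's test. The shares over all genes tested were 13.5% higher and 14% lower. Slc43a1, which carries branched-chain amino acids and phenylalanine, measured 6.40, 5.89 and 5.84 CPM in DOX 1 to 3, against 2.65, 2.10 and 1.97 CPM in PBS 1 to 3 (log2 fold change 1.43, SE 0.20, adjusted p = 0.00079). The betaine and GABA carrier Slc6a12 (0.57) and the small neutral amino acid carrier Slc38a2 (0.54) rose. Slc16a10, an aromatic amino acid carrier, fell by 0.78 on the log2 scale (adjusted p = 0.00619). Slc38a2 did not pass without PBS 2 (0.0696, with values from 0.00142 to 0.082).

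Of 12 regulators, 2 rose (16.7%), 1 fell (8.33%) and 9 did not pass, beside 13.5% higher and 14% lower of all genes tested. Klf15, a transcription factor known to drive amino acid-degrading genes in mouse liver, measured 219, 192 and 208 CPM in DOX, against 120, 80.5 and 108 CPM in PBS (log2 fold change 1.0, SE 0.14, adjusted p = 0.000885). Its groups did not overlap. PBS 2 was its lowest library, and was the lowest PBS library for 33 of the 44 members. PBS 1 was its highest PBS library, whereas PBS 3 was the highest for 35 of the 44. Hnf4a, a hepatocyte transcription factor, rose by 0.42 (adjusted p = 0.0292), but did not pass without DOX 1 (0.0633), DOX 3 (0.0842), PBS 1 (0.125) or PBS 2 (0.117), with values from 0.00376 to 0.125. Ppara, the fasting receptor known to lower amino acid-degrading genes in mice, measured 70.2, 125 and 76.9 CPM in DOX, against 165, 187 and 230 CPM in PBS (log2 fold change -1.10, SE 0.22, adjusted p = 0.0077). The glucocorticoid receptor gene Nr3c1 (0.27, adjusted p = 0.0759), Cebpb (0.32, adjusted p = 0.0682) and Ppargc1a (0.69, adjusted p = 0.057) pointed up without passing. The glucagon receptor gene Gcgr stood at 0.03 (adjusted p = 0.845). The part of these regulators in the changes of the 44 genes was not tested.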
